A study of Rattus norvegicus with 48 samples.

Results

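MicroRNAs were followed along the tubule of the rat kidney, in the order in which urine passes from the proximal tubule into Henle's loop, here its thick limb, and on to the collecting duct. The members are the 9 tubule libraries of the series, 3 from each segment, out of 11 libraries in all. They were chosen by their labelled segment, and each had been run on 4 flow cells, giving 36 of 44 runs. The animals were 3 naive male Sprague-Dawley rats aged 6 months, with no treatment or genetic change in any group, and every rat gave 1 library per tubule segment. Regions were laser-captured from frozen sections of 8 µm after immunofluorescence for glutathione-S-transferase in the Proximal Tubule, Tamm-Horsfall protein in the Thick Henle Loop and aquaporin-2 in the Collecting Duct, the names the labels use. Small RNA reads of 50 bp from a HiSeq2000 gave a table of 188 mature miRNAs. These 3 proteins are not measured by small RNA, so the segments could be checked only against miRNAs. Captured regions are pieces of tissue rather than sorted cells, and fewer cells of a type and less miRNA per cell cannot be told apart.

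The proximal tubule takes back most of the filtered solute and water, the thick limb takes up salt without water, and the collecting duct sets the final water, salt and acid content of the urine. A mature miRNA is a short RNA that guides Argonaute proteins to messenger RNAs, largely through its seed, the bases near its 5′ end that pair with the target. miRNAs that share a seed can share targets, and miRNAs cut from the same primary transcript are often made together. In the kidney, miR-192 and miR-194 are known as abundant tubular miRNAs, and the miR-200 family as a repressor of the ZEB transcription factors that silence E-cadherin in epithelia.

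The mature sequences of miRNAs chosen for their large, graded or abundant changes, or for a seed they share, are shown first, from RefSeq (build GRCr8), 5′ to 3′, with the seed (bases 2 to 8) in capitals. The first set holds miRNAs that were higher towards the collecting duct.
miR-31a-5p: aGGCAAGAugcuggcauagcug
miR-9a-5p: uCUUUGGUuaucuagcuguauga
miR-141-3p: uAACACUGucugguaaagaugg
miR-92b-3p: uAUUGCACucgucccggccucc
miR-205: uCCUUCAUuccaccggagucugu
miR-27a-3p: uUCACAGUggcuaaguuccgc
miR-27b-3p: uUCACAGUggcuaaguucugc
miR-182: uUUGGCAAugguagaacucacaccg
The second set holds miRNAs that were higher towards the proximal tubule.
miR-411-5p: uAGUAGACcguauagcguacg
miR-541-5p: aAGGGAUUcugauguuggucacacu
miR-192-5p: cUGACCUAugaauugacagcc
miR-194-5p: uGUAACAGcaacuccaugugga
miR-203a-3p: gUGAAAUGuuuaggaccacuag
miR-375-3p: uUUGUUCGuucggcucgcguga
In the first set miR-27a-3p and miR-27b-3p have the same seed, and no other pair in these 2 sets does.

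Along the axis, 41 of 188 miRNAs (21.8%) had a slope past an adjusted p of 0.05. Of these, 22 (11.7%) were higher and 19 (10.1%) lower towards the collecting duct. The slope is the change in log2(value + 1) per segment, that is the collecting duct minus the proximal tubule divided by 2, tested with limma with the rat as a block and Benjamini-Hochberg adjustment over all 188 miRNAs. All 41 had the same sign in 3 of 3 rats. The 22 higher miRNAs were between 1.77-fold and 80.3-fold higher in collecting duct than in proximal tubule, with a median of 3.06-fold, and the 19 lower ones between 1.76-fold and 25.7-fold lower, with a median of 7.42-fold. As a share of the summed values, the 22 made up 32.8% ± 2.73 in proximal tubule, 59.2% ± 0.228 in thick limb and 61.8% ± 2.00 in collecting duct (mean ± SD, n = 3 rats). The 19 made up 21.3% ± 2.98, 7.48% ± 0.67 and 3.73% ± 0.116 in the same order. miR-10a-5p alone held 25.1%, 49.2% and 47.0% of the summed values, so most of the rise in the first set was this miRNA. These shares describe miRNAs chosen by the slope and test nothing.

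The model left 4 residual degrees of freedom per miRNA. It found, in the deposited scaling, no differences in variance beyond a trend with abundance. miRNAs of like abundance thus shared 1 variance, and the smallest adjusted p below rest on it. With each miRNA's own variance instead, 7 slopes passed, those of miR-31a-5p, miR-92b-3p, miR-9a-5p, miR-192-5p, miR-194-5p, miR-342-3p and miR-181b-5p. After rescaling the libraries by median of ratios, to the same total or by quantiles, the model did find differences in variance beyond the trend. An exact permutation of the segments within each rat (two-sided, over every arrangement) gave a smallest p of 0.00926, reached by 11 miRNAs, and a smallest adjusted p of 0.158, so it called none. By that test 33 miRNAs had an unadjusted p below 0.05, against 60 by limma. Of the 41 slopes, 7 of the 22 higher and 10 of the 19 lower passed after leaving out each of the 9 libraries in turn. The number of slopes called was 21 without the proximal tubule of rat 1, 25 without that of rat 2, 26 without that of rat 3 and 21 without the collecting duct of rat 1. Between 218882 and 1296995 reads per library lay behind the 188 miRNAs, as estimated from the spacing of the low values.

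A strict order from segment to segment was rarer than a slope. The order proximal tubule, thick limb, collecting duct was rising in 3 of 3 rats for 8 miRNAs (4.26%) and falling for 3 (1.6%). These counts hold for the deposited scaling. Rescaling by median of ratios gave 10 rising and 10 falling, the same total 10 and 13, and quantile normalization 10 and 7. The 8 rising miRNAs were miR-31a-5p, miR-9a-5p, miR-141-3p, miR-92b-3p, miR-221-3p, miR-27a-3p and the pair miR-210-3p and miR-3574, which hold the same values, and all had called slopes. The 3 falling ones were miR-192-5p and miR-203a-3p, both with called slopes, and miR-6329, whose slope did not pass. For 4 miRNAs (2.13%), miR-31a-5p, miR-92b-3p and the same pair, no library of a segment overlapped with a library of the next. Proximal tubule and collecting duct alone did not overlap in 63 miRNAs (33.5%), among them 19 of the 22 higher slopes and 19 of the 19 lower ones.

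miR-31a-5p, known from squamous and other epithelia, had the largest slope of the table. Its normalized values were 7.24, 3.15 and 4.02 in the proximal tubules of rats 1, 2 and 3, 21.4, 9.82 and 41.4 in their thick limbs, and 257, 457 and 536 in their collecting ducts. Each segment lay wholly above the one before it. The slope was 3.16 ± 0.30 per segment (SE, adjusted p = 5.5e-23), or 80.3-fold between collecting duct and proximal tubule. Both steps passed their own test, with a log2 difference of 2.10 from proximal tubule to thick limb (adjusted p = 0.004) and 4.22 from thick limb to collecting duct (adjusted p = 4.1e-10). Without any 1 library the slope stayed between 2.90 and 3.42, while the first step missed the threshold in 2 of the 9 fits.

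miR-92b-3p, whose seed is that of miR-92a-3p and miR-25-3p, also passed at both steps. It had 39.3, 75.9 and 74.7 in proximal tubules, 252, 243 and 202 in thick limbs and 376.01, 597 and 811 in collecting ducts of rats 1, 2 and 3. No library overlapped with a neighbouring segment. The slope was 1.61 ± 0.18 (adjusted p = 3.1e-16), with log2 differences of 1.94 at the first step (adjusted p = 4.9e-06) and 1.29 at the second (adjusted p = 0.007). The second step lost its call under at least 1 other scaling of the values. The other miRNAs with the seed AUUGCAC did not show such slopes:
miR-92b-3p: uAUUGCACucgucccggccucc
miR-92a-3p: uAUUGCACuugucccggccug
miR-25-3p: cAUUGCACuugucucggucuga
miR-92a-3p averaged 69.6 ± 32.7 in proximal tubule, 57.7 ± 8.19 in thick limb and 55.7 ± 17.9 in collecting duct (SD, n = 3 each), and its slope of -0.15 ± 0.25 did not pass (adjusted p = 0.68). miR-25-3p averaged 199.6 ± 97.8, 181.1 ± 40.4 and 269 ± 50.6 in the same order, and its slope of 0.28 ± 0.18 did not pass either (adjusted p = 0.28).

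miR-141-3p, a miR-200 family member, was the third of the rising miRNAs called at both steps. Its values were 23.4, 6.85 and 81.9 in proximal tubules, 113, 69.5 and 149.6 in thick limbs and 251, 418 and 229.7 in collecting ducts. All 3 rats kept the order, although the proximal tubule of rat 3 lay above the thick limb of rat 2. The slope was 1.77 ± 0.22 (adjusted p = 9.6e-14). The first step of 2.09 was 1.27 without the proximal tubule of rat 2 (adjusted p = 0.11), and the second step, a log2 difference of 1.45 (adjusted p = 0.012), lost its call under at least 1 other scaling and in 6 of the 9 fits without a library.

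**Figure D1:**
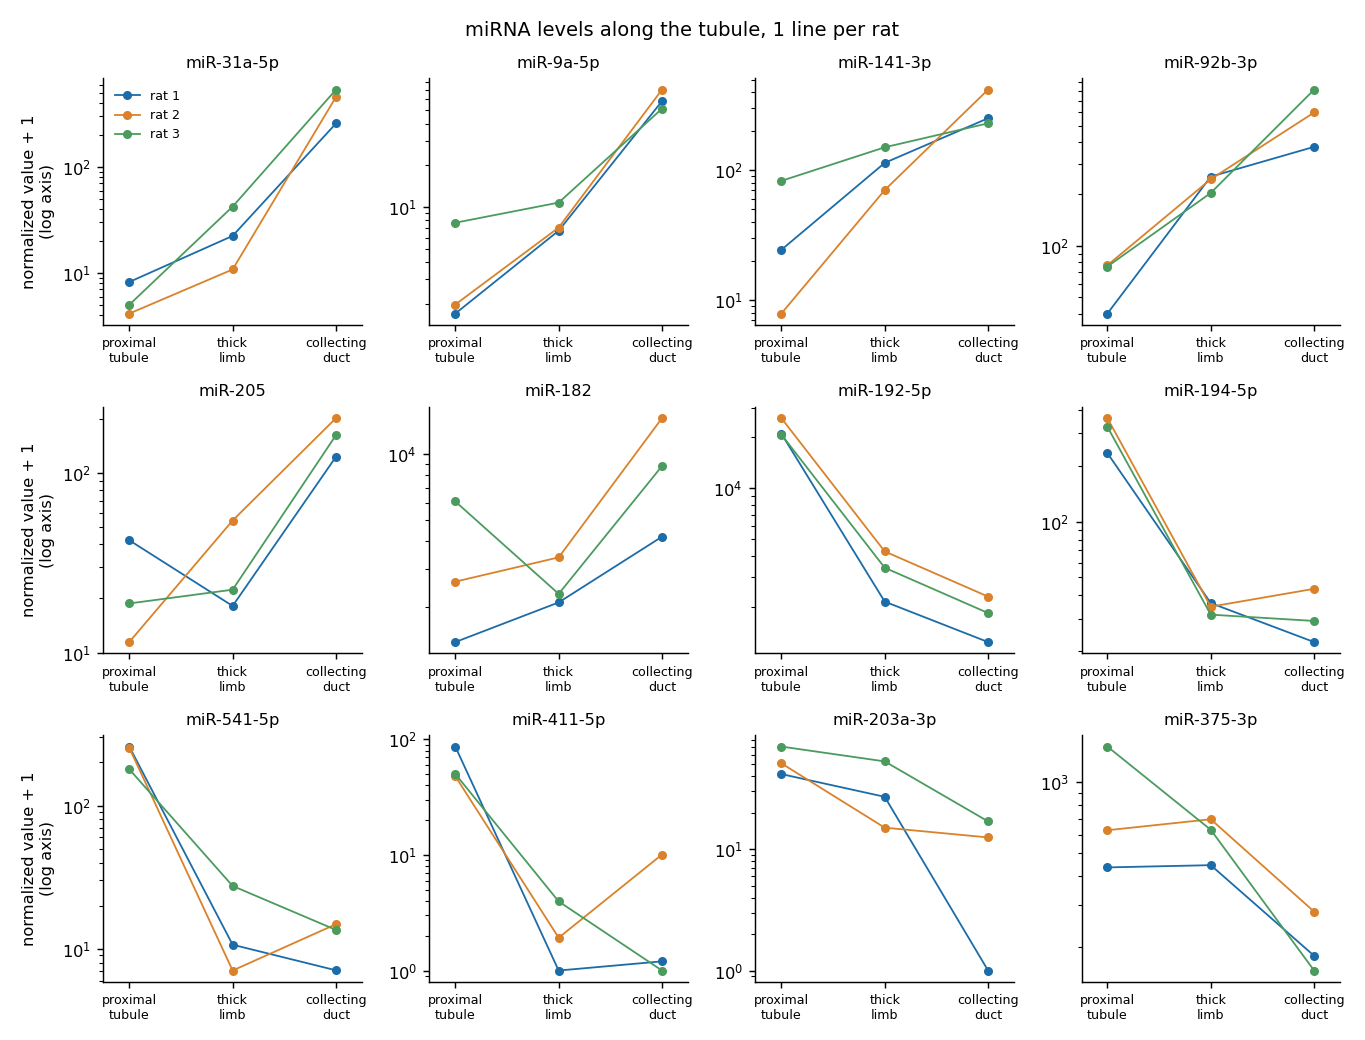
Normalized values plus 1 (log axis) of 12 miRNAs in the proximal tubule, thick limb and collecting duct, with 1 line for each of 3 rats. miR-31a-5p climbs in every rat to between 257 and 536 in the collecting duct, and miR-192-5p is highest in the proximal tubule of every rat, at 20807 to 26006.

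In the deposited scaling, most of the other rising miRNAs passed between thick limb and collecting duct rather than earlier. Of the 22 higher slopes, 11 passed at the second step only, 1 at the first only, 3 at both and 7 at neither alone. Of the 11, miR-9a-5p and miR-423-5p alone kept the second step under all 3 rescalings of the libraries (by median of ratios, to the same total and by quantiles). miR-9a-5p, best known from neural tissue, had 0.70, 0.976 and 6.69 in proximal tubules, 5.74, 6.10 and 9.76 in thick limbs and 57.1, 69.3 and 50.3 in collecting ducts. The collecting ducts stood far above all other libraries, and the proximal tubule and thick limb overlapped. Its slope was 2.30 ± 0.44 (adjusted p = 3.6e-06) and its second step 3.11 (adjusted p = 0.007). miR-205, which like the miR-200 family represses ZEB factors, had 41.2, 10.4 and 17.8 in proximal tubules, 17.2, 53.3 and 21.4 in thick limbs and 122, 201 and 161 in collecting ducts. Only the collecting ducts were set apart, with a second step of 2.52 (adjusted p = 0.00017) and a first step of 0.46 that did not pass (adjusted p = 0.68). The second step did not pass under any of the 3 rescalings, where it was 1.82 to 2.04, while the slope passed under all 3.

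miR-182 and miR-96-5p are neighbours on chromosome 4 and belong to a cluster best known from sensory organs. miR-182 had 1385, 2613 and 6072 in proximal tubules, 2101, 3373 and 2299 in thick limbs and 4192, 14580 and 8811 in collecting ducts. Rats differed widely, and the proximal tubule of rat 3 lay above the collecting duct of rat 1. Within each rat the collecting duct was highest, with a slope of 0.77 ± 0.15 (adjusted p = 3.7e-06) and a second step of 1.68 (adjusted p = 8.8e-07). The second step, unlike the slope, lost its call under at least 1 of the rescalings. miR-96-5p, at 8.64 ± 10.8, 4.80 ± 2.30 and 28.2 ± 21.4 along the axis (SD, n = 3 each), passed with a slope of 1.21 ± 0.46 (adjusted p = 0.044), but not without the rat as a block (adjusted p = 0.07) and not without either of 6 single libraries: proximal tubule of rat 1 (slope 1.03) or 3 (0.91), thick limb of rat 2 or 3 (1.21 each), and collecting duct of rat 1 (1.21) or 3 (0.93). It did not pass under any of the 3 rescalings either (1.12 to 1.18), nor on flow cell B (0.80) or C (1.04) alone. miR-3553, which overlaps miR-183-5p on the opposite strand, had a slope of 0.34 ± 0.18 that did not pass.

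miR-27a-3p and miR-27b-3p, both known to repress PPARG in fat cells, lie on different chromosomes and share the seed UCACAGU shown above. miR-27a-3p had 64.0, 68.3 and 105 in proximal tubules, 184, 73.3 and 202.7 in thick limbs and 266, 313 and 305 in collecting ducts, and every rat kept the order. Its slope was 0.96 ± 0.19 (adjusted p = 1.4e-05). miR-27b-3p was more abundant, at 3193 ± 467, 4017 ± 1052 and 6677 ± 1451 along the axis (SD, n = 3 each), with a slope of 0.53 ± 0.15 (adjusted p = 0.0032), which did not pass without the proximal tubule of rat 1 or the collecting duct of rat 1. Of the 7 measured miR-23, miR-27 and miR-24 members, these 2 rose and none fell.

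miR-221-3p, which represses the cell cycle inhibitor CDKN1B, was the only rising slope that passed at the first step alone. It had 0, 14.3 and 24.2 in proximal tubules, 18.4, 31.01 and 37.8 in thick limbs and 47.1, 60.02 and 47.1 in collecting ducts. The collecting ducts lay above all other libraries. The slope of 1.49 ± 0.35 (adjusted p = 0.00026) was 0.89 without the proximal tubule of rat 1, where no read was seen (adjusted p = 0.11), and 1.10 without the collecting duct of rat 1 (adjusted p = 0.092). The first step of 2.12 (adjusted p = 0.019) was 0.93 without the proximal tubule of rat 1 (adjusted p = 0.49), and it also missed the threshold without the thick limb of any 1 rat and after quantile normalization. miR-210-3p, induced by hypoxia, had 2.94, 3.09 and 8.75 in proximal tubules, 18.4, 9.33 and 17.03 in thick limbs and 23.4, 42.0 and 22.4 in collecting ducts. The segments did not overlap, and the slope was 1.24 ± 0.40 (adjusted p = 0.014), but it did not pass without the proximal tubule of rat 1 or 2 or the collecting duct of rat 1 or 2.

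Among the lower slopes the first step dominated the calls in the deposited scaling. Of the 19, 15 passed at the first step only, 2 at the second only, 1 at both and 1 at neither alone. Of the 15, miR-194-5p, miR-541-5p, miR-411-5p, miR-409b, miR-21-5p, miR-181b-5p and miR-3586-3p alone kept the first step under all 3 rescalings. miR-192-5p, an abundant miRNA of kidney, liver and gut, had 21065, 26006 and 20807 in proximal tubules, 2146, 4246 and 3401 in thick limbs and 1238, 2298 and 1837 in collecting ducts. The proximal tubules stood well above all other libraries, and thick limb and collecting duct overlapped between rats while every rat kept the order. The slope was -1.85 ± 0.15 (adjusted p = 2.1e-30), and the steps were -2.84 (adjusted p = 2.1e-18) and -0.85 (adjusted p = 0.034). The second step did not pass in 6 of the 9 fits without a library, where it lay between -0.98 and -0.77.

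miR-194-5p has a copy next to miR-192-5p on chromosome 1. It had 233, 360.4 and 323.5 in proximal tubules, 35.4, 33.8 and 30.5 in thick limbs and 21.4, 42.4 and 28.1 in collecting ducts. Thick limb and collecting duct overlapped fully. Its slope was -1.66 ± 0.24 (adjusted p = 2.9e-10), made up of a first step of -3.24 (adjusted p = 2e-09) and a second step of -0.09 that did not pass (adjusted p = 0.93).

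A group from the imprinted Dlk1-Dio3 locus on chromosome 6 had the largest falls. miR-411-5p had 85.7, 47.0 and 49.2 in proximal tubules, 0, 0.922 and 2.96 in thick limbs and 0.201, 9.09 and 0 in collecting ducts. Its slope was -2.34 ± 0.48 (adjusted p = 2.3e-05), and its first step -4.98 (adjusted p = 9.6e-06). miR-541-5p had 257, 253 and 178 in proximal tubules, 9.67, 6.05 and 26.4 in thick limbs and 6.07, 13.8 and 12.5 in collecting ducts, with a slope of -2.19 ± 0.31 (adjusted p = 1.4e-10). For both, the proximal tubules were set apart and the other segments overlapped. miR-409b, at 35.02 ± 10.1, 1.13 ± 0.977 and 3.15 ± 2.73 along the axis (SD, n = 3 each), also fell, with a slope of -1.79 ± 0.49 (adjusted p = 0.0026). Of the 5 measured miRNAs of this locus, 3 fell on the slope, against 10.1% of all miRNAs, and miR-127-3p and miR-300-3p did not pass. Their summed value was 352 to 405 in proximal tubules, 13.1 to 140.3 in thick limbs and 17.2 to 41.6 in collecting ducts.

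Both arms of miR-342, whose gene lies in an intron of EVL, were lower distally. miR-342-3p had 13.1, 40.8 and 19.3 in proximal tubules, 3.79, 4.69 and 2.92 in thick limbs and 0, 5.48 and 0 in collecting ducts, with a slope of -1.82 ± 0.50 (adjusted p = 0.0025). miR-342-5p averaged 12.9 ± 9.81 in proximal tubule and was at 0 in every collecting duct run, which made it at least 44.9-fold lower there when set against a floor of 3 reads over the group (a value of 0.287). Its call did not hold without the proximal tubule of rat 1 or 3 or the collecting duct of rat 1 or 2. Floors of this kind speak for counting error alone, because amplified reads do not each stand for a molecule.

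miR-203a-3p and miR-375-3p were the 2 miRNAs with a called lower slope that passed at the second step only. miR-203a-3p, known to limit proliferation in skin, had 40.7, 50.1 and 69.2 in proximal tubules, 26.1, 14.1 and 52.0 in thick limbs and 0, 11.5 and 15.96 in collecting ducts. The order held in every rat, and the slope was -1.60 ± 0.35 (adjusted p = 0.0001), with a second step of -2.23 (adjusted p = 0.018). Without the collecting duct of rat 1, where no read was seen, the slope was -1.02 (adjusted p = 0.082) and the second step -1.07 (adjusted p = 0.55). The second step also missed the threshold without the proximal tubule of rat 1 (-2.23) or the thick limb of rat 1 (-1.54) or 3 (-2.20), and after quantile normalization (-2.58). Its neighbour on the opposite strand, miR-203b-3p, had a lower slope of -1.71 and passed at the first step only. That first step passed in 3 of the 9 fits without a library, and neither call held under all 3 rescalings. miR-375-3p, first known from pancreatic islets, had 433.9, 625 and 1417 in proximal tubules, 444, 696 and 627 in thick limbs and 182.2, 281 and 158 in collecting ducts. The collecting ducts lay below all other libraries, and proximal tubule and thick limb overlapped. Its slope was -0.93 ± 0.16 (adjusted p = 3.2e-07), and the second step of -1.52 (adjusted p = 0.00012) passed without each of the 9 libraries.

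**Figure D2:**
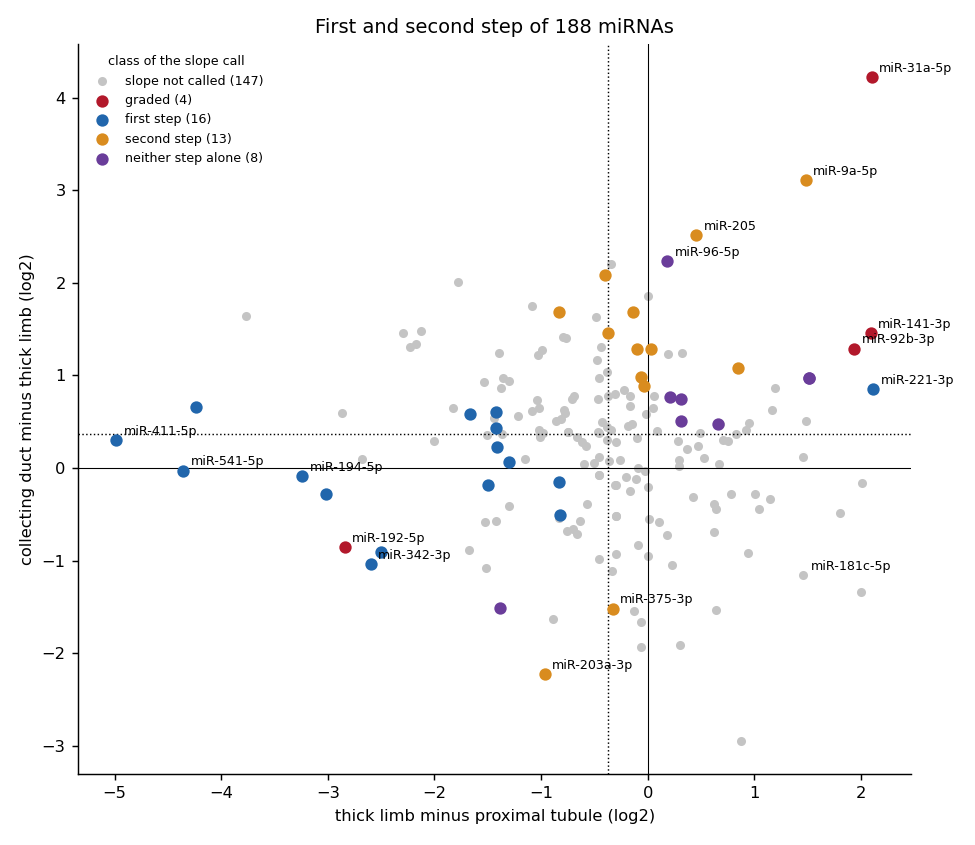
Difference of thick limb minus proximal tubule (x axis, log2) against collecting duct minus thick limb (y axis, log2) for 188 miRNAs, coloured by the step at which a called slope passed. Solid lines mark 0 and dotted lines the median miRNA. Rising slopes called at the second step sit high near the middle, and falling slopes called at the first step sit far to the left.

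The 2 steps taken alone depended on how libraries were scaled. In the deposited values the first step called 39 miRNAs (20.7%), 5 higher (2.66%) and 34 lower (18.1%) in thick limb than in proximal tubule. The second step called 26 (13.8%), 21 higher (11.2%) and 5 lower (2.66%) in collecting duct than in thick limb. The median over all miRNAs was itself shifted, by -0.37 at the first step, 0.36 at the second and -0.08 on the slope, and thick limb libraries had summed values of 115865 to 171675, against 149060 to 210783 in proximal tubule and 183748 to 255518 in collecting duct. Rescaling by the median of ratios gave 16 higher and 19 lower at the first step and 6 higher and 7 lower at the second. Rescaling to the same total gave 13 and 29, then 6 and 8. Quantile normalization gave 17 and 16, then 5 and 4. On the slope those rescalings gave 26 higher and 25 lower, 22 and 41, and 25 and 23. Of the 22 higher slopes 17, and of the 19 lower slopes 16, passed in the same direction under all 3 rescalings.

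The tallies by step must be read with that shift. For the first step, miR-31a-5p, miR-92b-3p, miR-141-3p and miR-181c-5p rose, and 12 of the 34 fell, under all 3 rescalings. The 12 included miR-192-5p, miR-194-5p, miR-541-5p, miR-411-5p, miR-409b, miR-21-5p and let-7d-3p. For the second step, miR-31a-5p, miR-9a-5p, miR-29a-3p and miR-423-5p rose, and miR-375-3p, miR-192-5p and miR-181c-5p fell, under all 3. Of these, miR-181c-5p, at -1.16 in the deposited values, did not pass in 4 of the 9 fits without a library, and its second step was -0.45 without the collecting duct of rat 3 (adjusted p = 0.41) and -0.74 without the thick limb of rat 3. Single libraries also moved these counts. The first step called 17, 18 and 19 without the proximal tubule of rat 1, 2 or 3, 20 and 24 without the thick limb of rat 2 or 3, and 25 without the collecting duct of rat 1. The second step called 14 without the proximal tubule of rat 1, 16, 15 and 10 without the thick limb of rat 1, 2 or 3, and 11 and 12 without the collecting duct of rat 1 or 2.

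**Figure D3:**
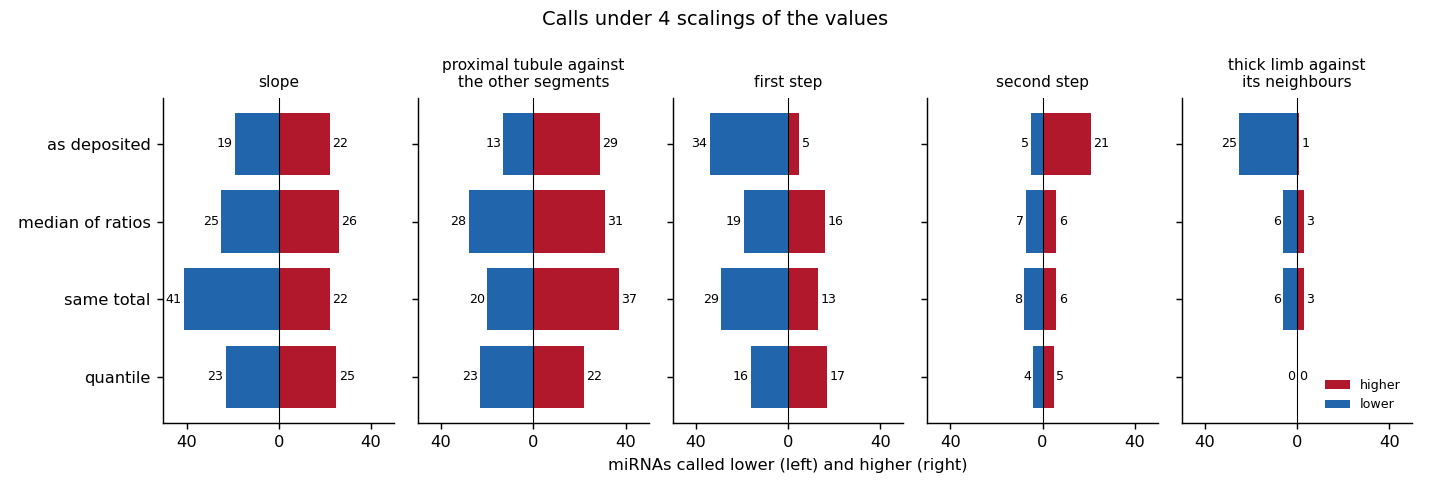
Number of miRNAs called lower (left, blue) and higher (right, red) in 5 contrasts, with the values as deposited and under 3 rescalings. The slope keeps calls in both directions under each scaling, while the 25 miRNAs called lower in thick limb than in its neighbours become 6, 6 and 0.

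A peak or trough in the thick limb was tested as its difference from the mean of both neighbours. This called 26 miRNAs (13.8%), of which 1 (0.532%) was higher and 25 (13.3%) lower in thick limb, with a median over all miRNAs of -0.35. The peak was miR-181c-5p, a member of a family known from lymphocyte development. It had 118, 168 and 218 in proximal tubules, 509, 261 and 648 in thick limbs and 294, 259.7 and 102 in collecting ducts. The thick limb was highest in rats 1 and 3, and in rat 2 it was level with the collecting duct. Its difference from the neighbours was 1.31 (adjusted p = 0.0012), and its slope of 0.15 ± 0.18 did not pass. The 3 other 5p members with the seed ACAUUCA did not share the peak, with thick limb means below proximal tubule for miR-181a-5p (2250 ± 639 against 3855 ± 516), miR-181b-5p (167 ± 30.3 against 532 ± 119.7) and miR-181d-5p (147 ± 48.3 against 182.6 ± 50.7). Of these, miR-181b-5p had a called slope, -0.54 ± 0.17 (adjusted p = 0.011), which 4 single libraries could undo.

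Troughs were rarer once the shift was removed. An abundant miRNA with a deep trough was let-7d-3p, the other arm of a let-7 hairpin, with 410.8, 369.9 and 397 in proximal tubules, 141.9, 40.5 and 119.7 in thick limbs and 181.4, 316 and 259.7 in collecting ducts. No thick limb library reached the lowest of the other segments, and the difference from the neighbours was -1.80 (adjusted p = 2.4e-06). miR-22-3p, the second most abundant miRNA, had 25882 ± 7181, 10033 ± 3060 and 17999 ± 4612 along the axis (SD, n = 3 each), with a difference of -1.12 (adjusted p = 0.0024). miR-1249 was at 0 in every thick limb run and averaged 16.2 ± 11.05 in proximal tubule, at least 63.4-fold lower in thick limb against a floor of 3 reads over the group. Its difference from the neighbours was -2.705 (adjusted p = 0.0298), and it passed in only 2 of the 9 fits without a library. Rescaling by the median of ratios left 3 higher and 6 lower, the same total also 3 and 6, and quantile normalization none, so no call of a peak or trough held under all 3. Without the thick limb of rat 2 there were 6 calls, without that of rat 1 14, without that of rat 3 15, without the proximal tubule of rat 1, 2 or 3 10, 12 and 13, and without the collecting duct of rat 1 or 2 16 each.

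Set against the mean of the other tubule segments, the proximal tubule differed in 42 miRNAs (22.3%), 29 of them higher (15.4%) and 13 lower (6.91%). The median over all miRNAs was 0.27 on this contrast. The other scalings gave 31 higher and 28 lower (median of ratios), 37 and 20 (same total) and 22 and 23 (quantile). It shares the proximal tubule libraries with the slope, so the calls of the 2 contrasts do not bear on each other. miR-541-5p was 4.37 ± 0.54 higher in proximal tubule on the log2 scale (adjusted p = 8.2e-14), miR-411-5p 4.83 ± 0.84 (adjusted p = 2.9e-07) and miR-192-5p 3.27 ± 0.26 (adjusted p = 1.3e-31). On the lower side miR-31a-5p stood at -4.21 ± 0.51 (adjusted p = 6.3e-14), miR-141-3p at -2.82 ± 0.38 (adjusted p = 8.4e-12) and miR-92b-3p at -2.58 ± 0.31 (adjusted p = 6.3e-14). These calls, miR-194-5p at 3.28 ± 0.42 and miR-9a-5p at -3.04 ± 0.75 passed without each of the 9 libraries. The count was 21 without the proximal tubule of rat 1, 23 without that of rat 2 and 25 without the collecting duct of rat 1.

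Some miRNAs passed on this contrast but not on the slope. miR-22-3p (0.95 ± 0.27, adjusted p = 0.0044), let-7d-3p (1.39 ± 0.31, adjusted p = 0.00017), let-7b-5p (0.69 ± 0.26, adjusted p = 0.036) and let-7d-5p (0.67 ± 0.26, adjusted p = 0.047) were higher in proximal tubule without a called slope, and all 4 were lowest on average in the thick limb. After quantile normalization let-7b-5p and let-7d-5p lost the call, and miR-22-3p did not keep its direction under all 3 rescalings. Without the proximal tubule of any 1 rat miR-22-3p, let-7b-5p and let-7d-5p did not pass. let-7g-5p passed on both, with a slope of -0.62 ± 0.15 (adjusted p = 0.00063), and was the only one of 14 let-7 and miR-98 members with a called slope. miR-375-3p also passed on both, at 1.09 ± 0.28 here, but this was 0.55 without the proximal tubule of rat 3 (adjusted p = 0.33).

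Families are described by their counts of called slopes, against 11.7% higher and 10.1% lower among all miRNAs and a median slope of -0.08. Of 5 miR-200 family members 2 rose, miR-141-3p and miR-429, none fell and the median slope was 0.49. miR-200b-3p (slope 0.42 ± 0.17, adjusted p = 0.056), miR-200a-3p (0.26 ± 0.21) and miR-200b-5p (1.00 ± 0.47) did not pass, and the slope of miR-429 (0.49 ± 0.19, adjusted p = 0.043) was 0.26 without the collecting duct of rat 2 and did not pass in 7 of the 9 fits without a library. Of 9 miR-30 family members, 3 rose, and these were miR-30a-5p, miR-30a-3p and miR-30c-2-3p, whose genes neighbour each other on chromosome 9. miR-30a-5p had 3096 ± 567, 3876 ± 950.1 and 5454 ± 1007 along the axis (SD, n = 3 each) and a slope of 0.41 ± 0.15 (adjusted p = 0.026), which did not pass in 6 of the 9 fits without a library. The slopes of miR-30a-3p and miR-30c-2-3p each passed in 4 of those 9 fits. The other 6 members, among them miR-30d-5p at 886 ± 92.7, 689 ± 169 and 839 ± 119, had no called slope.

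Other lists held few calls. In the 10 miR-17/92 paralogs miR-92b-3p rose and none fell, in 5 miR-15/16 members miR-16-5p fell (slope -0.49 ± 0.15, adjusted p = 0.0094), and in 7 miR-10 and miR-196 members miR-10a-5p rose. The slope of miR-16-5p did not pass without the proximal tubule of any 1 rat or the collecting duct of rat 1. None of 9 members of miR-99, miR-100 and miR-125, 3 miR-29, 3 miR-26, 4 miR-148 and miR-152, 2 miR-103 and miR-107, 2 miR-34 and 3 miR-322 cluster members had a called slope, nor had the only measured miR-204 member (miR-204-5p, slope -0.50). No member of the muscle list (miR-1, miR-133, miR-206) was in the table. Of the neuronal list miR-9a-5p rose, and miR-132-3p, seen only in collecting ducts at 5.11 ± 5.74, did not pass. Of the 3 injury and hypoxia miRNAs, miR-210-3p rose and miR-21-5p, known to rise in injured kidney, fell. miR-21-5p had 1262, 1149 and 1278 in proximal tubules, 492, 338 and 593 in thick limbs and 522, 719 and 419.7 in collecting ducts. Its proximal tubules did not overlap with the other libraries, and the slope was -0.59 ± 0.15 (adjusted p = 0.0014).

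**Figure D4:**
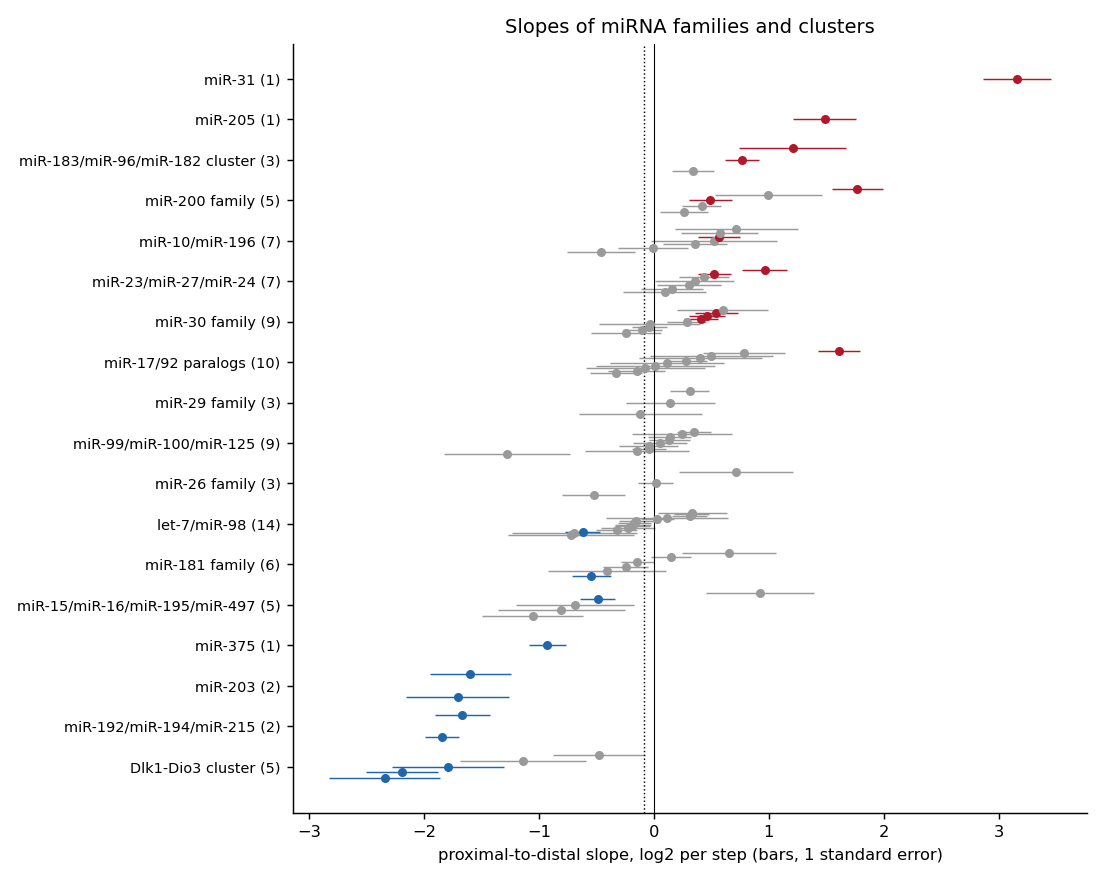
Slope in log2 per segment with 1 standard error for the measured members of 18 families or clusters (number of members in brackets). Red and blue mark called higher and lower slopes and the dotted line the median miRNA at -0.08. Members of the miR-31, miR-192 and miR-194 and miR-203 lists all lie on 1 side of 0, while let-7 and miR-17/92 members lie on both.

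Called slopes reached the most abundant miRNAs. The 10 most abundant made up 76.1% ± 0.588 of the summed values in proximal tubule, 79.9% ± 0.491 in thick limb and 79.4% ± 0.870 in collecting duct (SD, n = 3 each), and 6 of them had called slopes, against 21.8% of all miRNAs. miR-10a-5p, encoded in the HOXB cluster, was the highest miRNA of every tubule library. It had 37746, 39998 and 56750 in proximal tubules, 70201, 56313 and 85747 in thick limbs and 92718, 119558 and 81729 in collecting ducts. The proximal tubules and collecting ducts did not overlap. Its share of the summed values, 25.1% ± 1.97 in proximal tubule, was 49.2% ± 0.687 in thick limb and 47.0% ± 3.39 in collecting duct. Its slope of 0.57 ± 0.18 (adjusted p = 0.011) did not pass in 5 of the 9 fits without a library, those without a proximal tubule of any rat or the collecting duct of rat 1 or 2. Quantile normalization set its slope to 0 by construction, as it makes the top value equal in all libraries. miR-3557-5p had 5891, 7476 and 7887 in proximal tubules, 4549, 2506 and 5433 in thick limbs and 2498, 3362 and 2579 in collecting ducts, a slope of -0.66 ± 0.15 (adjusted p = 0.0001).

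Some names in the table are partners on opposite strands of a locus. RefSeq places 29 of the 172 miRNAs it matched by name opposite another mature miRNA. In 4 pairs both partners held the same value in every run, and each pair is an exact reverse complement, as in the pair with a called slope:
miR-210-3p: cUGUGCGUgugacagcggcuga
miR-3574: uCAGCCGCugucacacgcacag
The pairs were let-7a-5p with miR-3596a, miR-181a-1-3p with miR-3570, miR-210-3p with miR-3574 and miR-378a-5p with miR-3557-3p, so 188 names hold 184 distinct profiles, and within these pairs the reads of partners cannot be told apart. Other partners held different values. miR-125b-5p and miR-3588 are also exact reverse complements, with slopes of 0.14 and 0.16, and miR-130a-3p and miR-3590-5p overlap in 21 bases, with slopes of -0.16 and -0.45; none of these slopes passed. Among the called slopes, miR-3557-5p lies opposite miR-378a-3p, miR-409b opposite miR-409a-3p, miR-31a-5p opposite miR-31b and miR-9a-5p opposite miR-9b-3p, which are not in the table, and whether reads of such partners were counted together was not tested.

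Both arms were measured for 30 hairpins. In 3 of them (miR-30a, miR-342 and miR-423) both arms had called slopes in the same direction, in 6 only 1 arm did, and in none did the arms have calls in opposite directions. In the 9 fits without a library, the slope of miR-423-5p passed in 4, that of miR-423-3p in 6 and that of miR-30a-3p in 4. The slope of miR-423-5p also missed the threshold after rescaling to the same total (adjusted p = 0.063). miR-423-5p had 1662 ± 456, 943 ± 278 and 3207 ± 1570 along the axis and miR-423-3p 214.5 ± 111, 185 ± 13.9 and 458 ± 98.3 (SD, n = 3 each), with second steps of 1.69 and 1.28. Of the 41, 36 had a sequence. The median GC content was 48.0% over 19 rising miRNAs with a sequence, 47.6% over 17 falling ones and 45.5% over the others, and the first base was U in 68.4% of the rising, 47.1% of the falling and 47.8% of the other miRNAs, as a description with no test.

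Markers of other cell types were read beside these results. Of 3 endothelial miRNAs, miR-126a-5p (slope 0.42 ± 0.15, adjusted p = 0.022, kept in 5 of the 9 fits without a library) and miR-221-3p rose and miR-126a-3p did not pass (0.25 ± 0.19). The summed value of the 3 was 1249 to 1825 in proximal tubules, 1189 to 1651 in thick limbs and 1982 to 3230 in collecting ducts, so the collecting ducts lay above the other segments. Of 5 leukocyte miRNAs, miR-150-5p, abundant in mature lymphocytes, rose: it had 14.7, 24.1 and 41.8 in proximal tubules, 19.3, 21.4 and 14.5 in thick limbs and 92.4, 84.8 and 66.8 in collecting ducts (slope 0.84 ± 0.30, adjusted p = 0.026, not called without the proximal tubule of rat 1 or 2 or the collecting duct of rat 1 or 2). The summed value of the 5 was 421 to 889, 456 to 793 and 495.3 to 612 along the axis. The smooth muscle and mesangial pair miR-143-3p and miR-145-5p summed to 6119 to 8034, 4781 to 6094 and 6635 to 8080, and the mesenchymal miRNAs miR-199a-3p and miR-199a-5p to 76.7 to 130.2, 54.7 to 154.8 and 69.3 to 171.6, with no called slope in either list. No red blood cell marker (miR-451, miR-144, miR-486) was in the table. The part of these cells in the rising slopes was not tested.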

How the data were processed

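Small RNA of laser-captured tubule segments had been sequenced after TruSeq small RNA library preparation, per the labels. Per the name of their file, the authors' signal is read counts after TMM normalization, with low counts removed. The submitters' processing notes list Partek 6.0, Bowtie2 2.2.5, Bowtie 1.0.0 and build rn6, and how miRNAs that overlap on opposite strands were counted is not given in the sources used here. Between 88.3% and 99.0% of low values (up to 30 reads) were whole reads within 0.03, too few for a count test.

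log2(value + 1) was averaged over the 4 flow cells of a library, so n counts rats. limma 3.58.1 in R 4.3.3 (lmFit, contrasts.fit, eBayes with a variance trend) fitted segment and rat, two-sided, with Benjamini-Hochberg adjustment over 188 miRNAs. It was also run on simulated data in which miRNAs of like abundance had the same spread, so that run could not check the shared variance. Fold changes on this scale understate low miRNAs. The contrasts were the slope, each step, the thick limb against its neighbours and the proximal tubule against the mean of the others. The rat entered as a block since the labels give 1 library of each segment per animal. Deviations had a median correlation of 0.165 over 9 same-rat pairs, of which 5 were positive, and -0.104 over 18 others. With the rat as a random effect, the fitted within-rat correlation was -0.070. These correlations give little sign of pairing, so the block rests on the labels. For the 65 miRNAs averaging 100 or more, the median SD of log2 values was 0.123 between runs and 0.280, 0.345 and 0.344 between rats in proximal tubule, thick limb and collecting duct. The named miRNAs were drawn from those with the largest called changes per contrast with the same sign in every rat and a mean of at least 10, the 10 most abundant, and list members that passed. Not every miRNA that met this rule is named. miR-6329, let-7d-3p and the seed and strand partners were named after their values were seen. Members, lists and tests were chosen with earlier results of these data known. Sequences are from RefSeq, which held 172 of 188 miRNAs by name. Alternatives covered scaling, pseudocount, filter, variance model, block, flow cell, left-out libraries and an exact permutation test.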

Additional observations from a re-analysis of the deposited data

How the results depend on the processing

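Among 88 contrasts of named miRNAs, 1995 of 2647 values under other settings kept the side of the threshold. Of the rest, 652 no longer passed, and none took the opposite sign. The slope and proximal tubule contrast of miR-10a-5p were 0 under quantile normalization. Outside these 88, the proximal tubule contrast of miR-22-3p did not keep its direction under all 3 rescalings. The slope called 41 miRNAs as reported, 19 with the glomerulus libraries in the fit, 7 with no variance shrinkage, 21 with no variance trend, 24 with the segment score as a number, 63 after rescaling to the same total and 0 by exact within-rat permutation; at an unadjusted p below 0.05 the exact test had 33. The proximal tubule contrast called 42 as reported, 21 with the glomerulus, 10 with no shrinkage, 21 with no trend and 0 by exact permutation, with 34 at an unadjusted p below 0.05. The lowest p open to the exact test was 0.00926 on the slope and 0.037 on this contrast. After adjustment it could call a miRNA only if a large part of the table tied there, so its counts of 0 say little. The first step called 39, and then 15, 4 and 12 for those 3 model changes. The second step called 26, and then 4, 0 and 2, with 13 by median of ratios, 14 at the same total and 9 by quantile normalization; 41 had an unadjusted p below 0.05. The thick limb against its neighbours called 26, and then 1, 0 and 0, with 17 on flow cell D alone, 9 by median of ratios, 9 at the same total and 0 by quantile normalization; 47 had an unadjusted p below 0.05. The number in the same order in every rat was 11, and 20, 23 and 17 under those 3 scalings. The cause of these changes was not tested.

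Leaving out a library or a rat gave 10 to 45 slopes, 5 to 47 proximal tubule calls, 2 to 44 at the first step, 2 to 31 at the second and 1 to 37 for the thick limb, with rat 1 at the low end of each; the number in the same order was 17 to 28 over the 2 remaining rats. Without rat 2 there were 32 slopes and without rat 3 24. Without the rat as a block the paired design gave 40 slopes, 42 proximal tubule calls, 38 and 24 at the steps and 26 for the thick limb, and among called slopes named here it changed the call of miR-96-5p (adjusted p = 0.07), and on the proximal tubule contrast that of miR-182 (adjusted p = 0.093).

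With 3 rats and shared variance, small adjusted p-values rest on the model. Estimated depth differed about 6-fold between thick limb libraries, and values at 0 in the shallow ones allow up to 3 reads. Normalization factors were not at hand, so a shift of all miRNAs in the thick limb cannot be told apart from scaling.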
